A study of Homo sapiens with 4 samples.

Results

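This report covers the mRNAs of the small and cytosolic heat shock proteins in human fibroblasts with induced oncogenic RAS after an enhancer or its target gene had been cut. The list held 10 genes chosen by symbol: the small heat shock proteins HSPB6, HSPB1, HSPB7, HSPB8 and CRYAB, the HSP70 proteins HSPA1A and HSPA8, the HSP90 proteins HSP90AA1 and HSP90AB1, and the co-chaperone DNAJB1. Of these, 9 were among the 12033 genes with deposited values, and 8 averaged 2 RPKM or more and were compared with all 7589 genes that did. HSPB7 was not analysed here, and CRYAB stayed at or next to the lowest value given. The list was drawn up because HSPB6 had been seen to move in opposite directions with the enhancer guides and the FOXF1 guide, so its values below are a description.

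RNA was measured in BJ fibroblasts, a line of human primary fibroblasts immortalized with hTERT, in which 4-OHT switches on oncogenic RASG12V, and all libraries came from cells kept in 4-OHT for 14 days. Every cell population carried hTERT, the inducible RASG12V and a CRISPR vector, and the populations differed in the guide. sgRNA-NT, the control, is a guide without a target. sgRNA-AP1-69 and sgRNA-AP1-71 (sgRNA.69 and sgRNA.71 in the sample labels) both cut the AP-1 site of the enhancer Enh.AP1.OIS1, and are called guides 69 and 71 here. sgRNA-FOXF1 cuts FOXF1, which encodes a forkhead transcription factor and which the study names as the target gene of this enhancer. Each guide gave 1 library from a transduced population, with no cloning step described, and untreated cells were not analysed here. The values are RPKM (reads scaled to transcript length and library size), quantile-normalized over the 4 libraries with a floor of 1. Read counts are not part of the values used here, so the depth is unknown and counting error cannot be stated.

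Heat shock proteins keep other proteins soluble and help them to fold. Small heat shock proteins hold unfolding proteins without using ATP. HSP70 proteins, helped by J-domain co-chaperones such as DNAJB1, bind and release unfolded stretches in an ATP-driven cycle, and HSP90 proteins finish the folding of kinases, steroid receptors and other clients. Some family members are made at all times, while others are switched on by heat shock factor HSF1, which binds repeated GAA units (heat shock elements) in promoters. HSPB6, HSPB7 and CRYAB are best known from heart, skeletal and smooth muscle.

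Heat shock element units were looked for in the 250 bases before the start of each gene, on both strands. The promoters were from RefSeq, located in GRCh37, and a gene counted if any of its promoters held the motif. The genes were chosen by symbol from a family with members switched on through such units. A high share was therefore likely beforehand, and the counts are a description. A promoter was at hand for 9 of the 10 genes (none for CRYAB). The pair of facing units GAANNTTC stood in 8 of these 9, all but HSPB7, against 7.05% of the 27305 genes with a promoter. The run of 3 alternating units in which GAANNTTC is followed by NNGAA, so that it also contains TTCNNGAA, stood in HSPA8, HSP90AA1 and HSP90AB1, against 0.557% of all genes. The AP-1 motif TGACTCA stood in 0 of the 9 (5.19% of all genes) and the forkhead motif GTAAACA in HSP90AA1 (3.66% of all genes). A match shows only that the letters are there. In the stretches of HSPA8, HSP90AA1 and HSP90AB1 printed below, the run of 3 lies in this order on the strand opposite to the gene. On the strand of the gene, the third unit therefore stands before the facing pair and not after it. The stretches are shown so that the promoter of HSPB6, whose mRNA differed most between libraries within the list, can be set beside those of the genes that varied less. Capitals mark the units, all are written 5′ to 3′ on the strand of the gene, and the first is that of HSPB6 from 250 to 11 bases before its start, at chr19:36247941-36248180 on the minus strand of GRCh37. The RefSeq starts differ from the ends of the GENCODE gene spans, so that the HSPB6 stretch lies within the span given below.

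HSPB6: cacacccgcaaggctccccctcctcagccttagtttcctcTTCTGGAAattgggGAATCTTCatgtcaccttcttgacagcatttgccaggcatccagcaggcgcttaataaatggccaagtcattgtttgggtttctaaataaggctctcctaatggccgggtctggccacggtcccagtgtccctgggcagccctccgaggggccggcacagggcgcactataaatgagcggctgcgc

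The next stretches, of 30 bases each, hold the units of the other promoters, the run of 3 where there is one and otherwise the pair nearest to the start. They lie at chr7:75931797-75931826 (HSPB1, plus strand), chr12:119616637-119616666 (HSPB8, plus), chr6:31783203-31783232 (HSPA1A, plus), chr11:122932878-122932907 (HSPA8, minus), chr14:102553448-102553477 (HSP90AA1, minus), chr6:44215560-44215589 (HSP90AB1, plus) and chr19:14629238-14629267 (DNAJB1, minus), all in GRCh37.
HSPB1: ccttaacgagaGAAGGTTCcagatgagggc
HSPB8: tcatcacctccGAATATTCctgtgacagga
HSPA1A: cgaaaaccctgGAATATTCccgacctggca
HSPA8: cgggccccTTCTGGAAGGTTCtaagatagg
HSP90AA1: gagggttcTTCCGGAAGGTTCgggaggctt
HSP90AB1: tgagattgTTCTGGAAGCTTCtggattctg
DNAJB1: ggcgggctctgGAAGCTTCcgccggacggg
In HSPB6 the first base of GAANNTTC lies 196 and that of TTCNNGAA 210 bases before the start. The units shown begin 182 bases before the start in HSPB1, 112 in HSP90AB1, 106 in HSPA1A, 88 in HSPB8 and HSP90AA1, 55 in HSPA8 and 47 in DNAJB1.

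As a check of the labels, FOXF1 mRNA was at 29.6 RPKM with the control, 11.1 with guide 69, 7.8 with guide 71 and 25 with the FOXF1 guide. Transcripts carrying small insertions or deletions still count as FOXF1, so the last value does not check the loss of the protein. HRAS was lower with the enhancer guides as well, at 446.4 and 427.4 RPKM against 829.4 with the control and 707.6 with the FOXF1 guide. Of 10 fibroblast markers all had values, and 9 were compared, while 1 (FAP) was at the floor in every library. With both enhancer guides, 2 of the 9 (LUM and S100A4) lay above the control by 1.5-fold or more, against 6.77% of all genes. Below it by as much lay 3 (COL1A1, COL1A2 and PDGFRA), against 8.63%. With the FOXF1 guide, 4 were higher (11.6%) and 1 was lower (13.2%) than the control. Against both enhancer guides, 3 (COL1A1, COL1A2 and LUM) were higher with the FOXF1 guide (3.12%) and 0 were lower (1.86%). The summed level of the list, mostly VIM and S100A4, ran from 3562.3 RPKM with the control to 5371.0 with guide 71. Of 10 striated muscle markers 1 (MYH3) had values and lay at the floor in all 4 libraries, of 7 epithelial markers KRT8 and KRT18 had values (4.5 to 135.5 RPKM), and of 6 endothelial and immune markers CD14 had values (6.0 to 9.8 RPKM). In bulk RNA, fewer cells of a type and less RNA per cell cannot be told apart. The mRNAs of the mitochondrial genome were read as a sign of RNA quality. Their median log2 ratios to the control were -1.02 with guide 69, -1.54 with guide 71 and -0.77 with the FOXF1 guide. By contrast, MT-ND3 was lowest in the control. MT-CO1 and MT-CO2 had equal values in all 4 libraries. Quantile normalization gives equal values to equal ranks, so this does not show an unchanged level. The part of the mitochondrial mRNAs in the results below was not tested.

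Per length of transcript, the constitutive HSP70 gene HSPA8 had the highest level of the group, between 627.8 and 922.1 RPKM, followed by HSP90AB1, between 390.3 and 504.6 RPKM. HSPB1 came next (171.3 to 241.7 RPKM), then HSP90AA1 (109.3 to 116.2), DNAJB1 (55.4 to 71.6), HSPB8 (16.7 to 28.4), HSPA1A (9.6 to 11.5), HSPB6 (2.9 to 15.2) and CRYAB (1.0 to 1.1). Neighbours in this order kept their places in all 4 libraries and their ranges did not overlap, except that HSPB6 passed HSPA1A with the FOXF1 guide. Summed over the 9 genes, the level was 1537 RPKM with the control, 1603 with guide 69, 1844 with guide 71 and 1503 with the FOXF1 guide, and HSPA8 and HSP90AB1 made up most of it.

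**Figure D1:**
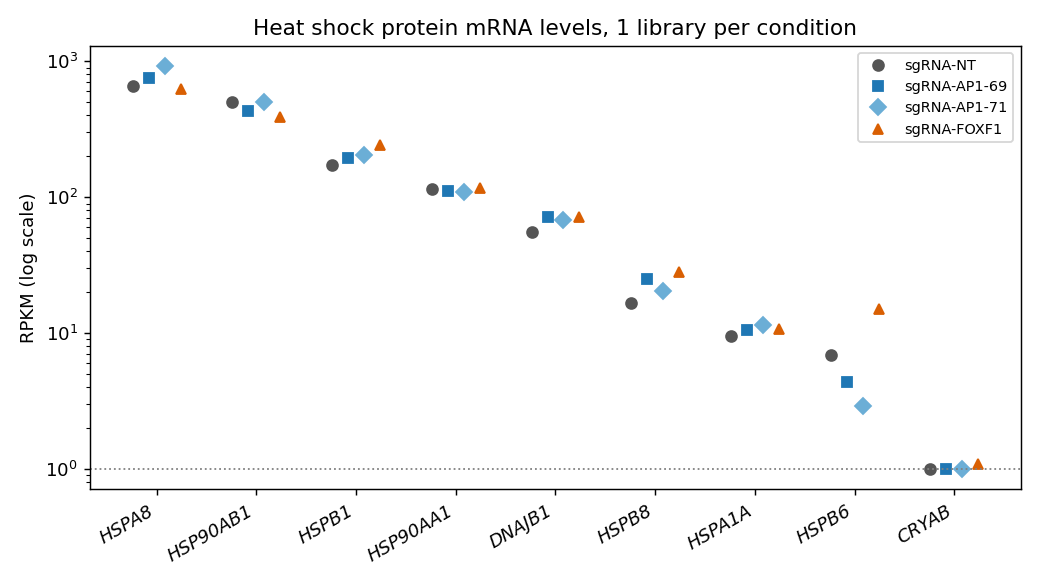
RPKM on a log axis of the 9 heat shock protein genes in each of the 4 libraries, with genes ordered by mean level, 1 point per library and the floor of 1 RPKM dotted. HSPB6 spreads from 2.9 to 15.2 RPKM, while HSP90AA1 stays between 109.3 and 116.2 RPKM.

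HSPB6, also called HSP20, is a small heat shock protein of muscle that is phosphorylated by cyclic nucleotide-dependent kinases. Its mRNA was at 6.9 RPKM with the control, 4.4 with guide 69, 2.9 with guide 71 and 15.2 with the FOXF1 guide. Both enhancer guides lay below the control and the FOXF1 guide lay above it. Of the genes compared, 13.0% had both enhancer guides on one side of the control and the FOXF1 guide on the other. Against the control, HSPB6 was 1.57-fold lower with guide 69 and 2.38-fold lower with guide 71, a mean log2 ratio of -0.95 (SD 0.43, n = 2 guides), and 2.20-fold higher with the FOXF1 guide (log2 ratio 1.14). Between the targets, it was 3.45-fold and 5.24-fold higher with the FOXF1 guide than with guides 69 and 71, a log2 difference of 2.09 to the mean of the enhancer guides (SD 0.43, n = 2 guides). HSPB6 was chosen for this contrast and no test was made of it.

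As a description of these libraries, HSPB6 had the second largest rise of the 7589 genes between the enhancer guides and the FOXF1 guide. Both enhancer guides put HSPB6 at least 1.5-fold under the control, and the FOXF1 guide put it at least 1.5-fold above. It was the 1 gene (0.0132% of all) to meet this rule. With guide 71 in place of both enhancer guides, 8 genes met it, HSPB6 among them. With a pseudocount of 1, the log2 ratio of HSPB6 with guide 69 was -0.55 and no longer reached 1.5-fold. It also differed between the guides that share a target, being 1.52-fold lower with guide 71 than with guide 69, a size that 2.85% of genes reached in that direction. This difference, -0.60 on the log2 scale, was under 1.5-fold with a pseudocount of 1 (-0.47) and after removal of the GC trend (-0.48). The highest and the lowest library were 5.24-fold apart, against a median of 1.45-fold over all genes.

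**Figure D2:**
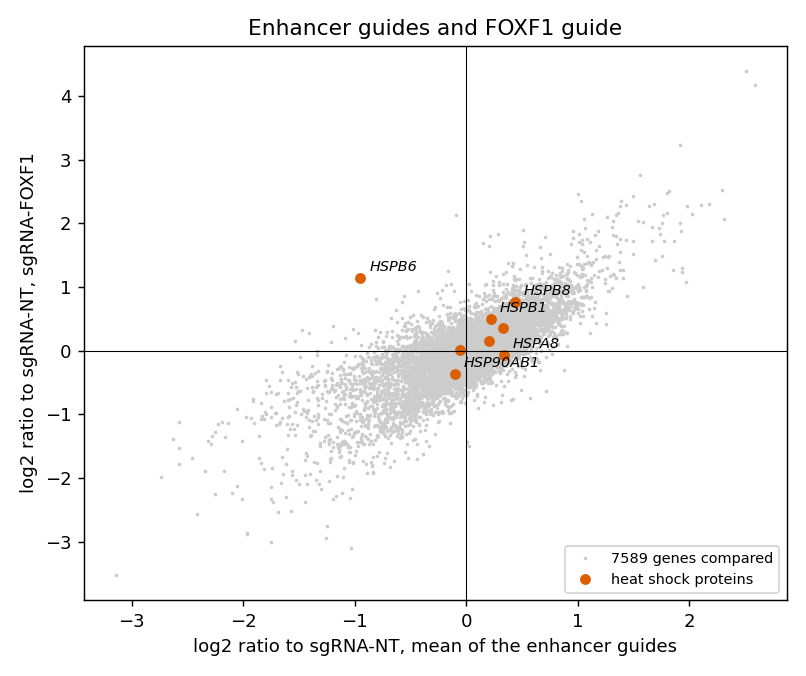
Log2 ratio to the control as the mean of both enhancer guides (x axis) and with the FOXF1 guide (y axis), 1 point per gene for 7589 genes (grey) and 8 heat shock proteins (orange). Both axes share the single control library, and HSPB6 lies at -0.95 and 1.14, in the upper left and apart from the cloud.

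The HSPB6 gene (ENSG00000004776) spans chr19:36245467-36248980 on the minus strand of GRCh37, and its canonical transcript of 1460 bases has 3 exons. An unnamed gene on the opposite strand (ENSG00000267328) overlaps it and holds 38.3% of the 65-base windows of the HSPB6 transcript. The study describes stranded libraries, whereas the labels name a kit that does not mark strand. Without strand, reads of the pair cannot be told apart, so the HSPB6 values carry this uncertainty. The GC content of the transcript is 62.7%, higher than in 91.1% of the genes compared. Across 7559 genes the log2 difference between the FOXF1 guide and the enhancer guides had a Spearman correlation of 0.60 with GC content (genes of the same 4 libraries, not independent replicates). After removal of that trend the HSPB6 difference was 1.79. The correlation with length was -0.02, and removal of that trend left 2.09. The part of GC content in the HSPB6 difference was not tested beyond this removal.

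The 5 genes whose centred log2 levels over the 4 libraries lay nearest to HSPB6 were LRRN4CL (Euclidean distance 0.38), ZSWIM1 (0.55), DACT3 (0.59), SERPING1 (0.62) and IGFBP2 (0.65), against a median distance of 1.85 over 7588 genes. LRRN4CL was at 3.8 RPKM with the control, 2.6 and 1.8 with guides 69 and 71 and 6.7 with the FOXF1 guide. IGFBP2, which encodes a secreted binder of insulin-like growth factors, was at 11.9, 4.9, 4.1 and 14.5 RPKM in the same order. SERPING1, the inhibitor of complement C1, was at 2.7, 2.2, 1.5 and 4.6 RPKM. All 5 were low with both enhancer guides and highest with the FOXF1 guide, which follows from their choice by nearness to HSPB6. ZSWIM1 was listed at the floor of 1.0 RPKM with guide 71. Of the 7588 genes, 45 lay within a distance of 1 of HSPB6. No other heat shock protein of the list was among them, with distances from 1.61 (HSPB8) to 2.17 (HSPA8).

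Among the other small heat shock proteins, HSPB1 (HSP27), a widely made chaperone that binds actin, was at 171.3 RPKM with the control, 194.6 with guide 69, 204.5 with guide 71 and 241.7 with the FOXF1 guide. It was lowest in the control and highest with the FOXF1 guide, by 1.41-fold. After removal of the GC trend guide 71 was highest, at log2 ratios of 0.28, 0.51 and 0.32 for guide 69, guide 71 and the FOXF1 guide, and the difference of the FOXF1 guide to the enhancer guides turned from 0.28 to -0.08. HSPB8 (HSP22), the partner of BAG3 in the clearance of misfolded proteins, was at 16.7, 25.1, 20.4 and 28.4 RPKM in the same order. It too was lowest in the control and highest with the FOXF1 guide, by 1.70-fold, and the enhancer guides lay between them at log2 ratios of 0.59 and 0.29. CRYAB, the alpha-B crystallin chain of lens and muscle, was listed at 1.0 in 3 libraries and at 1.1 RPKM with the FOXF1 guide. Of the small heat shock proteins, HSPB6 alone was below the control with both enhancer guides in these values. HSPB1 mRNA was 24.8 times that of HSPB6 with the control, 44.2 and 70.5 times with guides 69 and 71, and 15.9 times with the FOXF1 guide, a ratio of RPKM values within each library. HSPB6 thus made up 1.27% to 5.33% of the summed RPKM of HSPB6, HSPB1 and HSPB8.

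Both HSPB1 and HSPB6 have GC-rich transcripts (65.3% and 62.7%), and HSPB1, at 777 bases, is shorter than all but 4.42% of the genes compared. Log2 ratios to the control fell with transcript length across genes, with Spearman correlations of -0.50, -0.45 and -0.45 for guide 69, guide 71 and the FOXF1 guide. After removal of the length trend the log2 ratios of HSPB1 were -0.17, -0.13 and 0.17 in this order, against 0.18, 0.26 and 0.50 before, so that its place above the control with the enhancer guides turned. For HSPB8 they were 0.39, 0.05 and 0.54, against 0.59, 0.29 and 0.77 before. For HSPB6 they were -0.91, -1.56 and 0.85, each on the same side of the control as before.

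HSPA8, the HSC70 chaperone that also strips clathrin from vesicles, was at 659.4 RPKM with the control, 751.9 with guide 69, 922.1 with guide 71 and 627.8 with the FOXF1 guide. The enhancer guides lay above the control and the FOXF1 guide slightly below it, the opposite order to HSPB6, although its log2 ratio with the FOXF1 guide turned from -0.07 to 0.11 after removal of the GC trend. The log2 difference of the FOXF1 guide to the mean of the enhancer guides was -0.41, and it was -0.19 after removal of the GC trend (GC content 45.3%). HSPA1A, an HSP70 gene induced by heat, was at 9.6, 10.6, 11.5 and 10.7 RPKM, within 1.20-fold in the 4 libraries. Of its 65-base windows 74.3% also occur in transcripts of other genes, mainly its near copy HSPA1B, so reads could not all be assigned to it and its level is uncertain. HSPA1B itself was at 8.4, 9.6, 8.9 and 9.4 RPKM, and the pair summed to 18.0, 20.2, 20.4 and 20.1 RPKM. HSPA8 was 58.7 to 80.2 times as high as HSPA1A, lowest with the FOXF1 guide and highest with guide 71.

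DNAJB1 (HSP40), which hands unfolded proteins to HSP70, was at 55.4 RPKM with the control, 71.6 with guide 69, 67.8 with guide 71 and 71.1 with the FOXF1 guide. All targeted libraries lay above the control, by 1.22-fold to 1.29-fold.

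HSP90AA1, the stress-inducible cytosolic HSP90, was at 114.8 RPKM with the control, 111.5 with guide 69, 109.3 with guide 71 and 116.2 with the FOXF1 guide. Its highest library was 1.06-fold above its lowest, and 0.725% of the genes compared had a narrower range. Its difference between the FOXF1 guide and the enhancer guides was 0.07, and became 0.32 after removal of the GC trend (GC content 41.6%), with log2 ratios to the control of -0.01, -0.14 and 0.25. The log2 ratio with the FOXF1 guide, 0.02, turned to -0.04 after median centring. HSP90AB1, the constitutive cytosolic HSP90, was at 501.8, 432.1, 504.6 and 390.3 RPKM in the same order. It was lowest with the FOXF1 guide, 1.29-fold below the control, and the enhancer guides were at log2 ratios of -0.22 and 0.01, the latter turning to -0.07 after median centring. HSP90AB1 mRNA was 4.37 times that of HSP90AA1 with the control, 3.88 and 4.62 times with guides 69 and 71 and 3.36 times with the FOXF1 guide. Both genes share some of their 65-base windows with other transcripts, mainly pseudogenes (10.3% for HSP90AA1 and 9.88% for HSP90AB1).

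**Figure D3:**
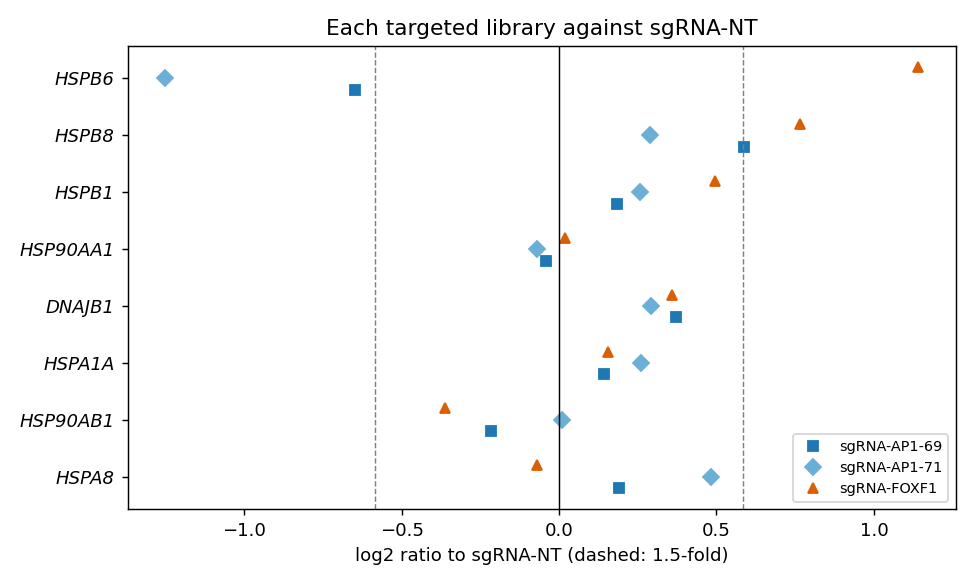
Log2 ratio to the control of the 8 compared heat shock proteins with guide 69, guide 71 and the FOXF1 guide, 1 point per library, ordered by the difference between the FOXF1 guide and the enhancer guides, with 1.5-fold dashed. HSPB6 lies past the lower 1.5-fold line with both enhancer guides and at 1.14 with the FOXF1 guide, and HSPB8 reaches the 1.5-fold line with guide 69 and passes it with the FOXF1 guide.

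Counted over the 8 genes compared, 1 (HSPB8) was at least 1.5-fold higher than the control with guide 69, against 8.17% of all genes, and 1 (HSPB6) at least 1.5-fold lower, against 9.92%. With guide 71, 0 were higher (14.0% of all genes) and 1, HSPB6, was lower (14.7%). Both enhancer guides together put 0 genes past 1.5-fold higher (6.77%) and HSPB6 past 1.5-fold lower (8.63%). With the FOXF1 guide, HSPB6 and HSPB8 were higher (11.6%) and 0 were lower (13.2%). Against both enhancer guides, HSPB6 was at least 1.5-fold higher with the FOXF1 guide (3.12% of all genes) and 0 were lower (1.86%). Between guides that share a target, 0 were at least 1.5-fold higher with guide 71 than with guide 69 (2.41%) and HSPB6 was lower (2.85%). Read against these shares, counts of 0 to 2 among 8 genes are no result about the group. The median log2 ratios of the 8 genes were 0.16, 0.26 and 0.26 with guide 69, guide 71 and the FOXF1 guide, beside 0.07, 0.08 and 0.05 over all genes.

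With the enhancer guides taken as a group of 2, the comparison with the control could be tested with limma. The spread came from these 2 different guides alone, since the control and the FOXF1 guide gave 1 library each. No variation between control libraries was measured. Of 7589 genes 0 (0% called) had a Benjamini-Hochberg adjusted p under 0.05, while 1842 had an unadjusted p under 0.05, with 1 residual degree of freedom. For the 7 heat shock proteins other than HSPB6 the adjusted p ran from 0.213 to 0.684. DNAJB1, above the control with both guides, had a log2 ratio of 0.33 (SE 0.10, adjusted p = 0.213, limma), HSPB8 one of 0.44 (SE 0.19, adjusted p = 0.27, limma) and HSPA8 one of 0.34 (SE 0.18, adjusted p = 0.322, limma). None of the 7 passed the test, which does not show that they were the same in both conditions. The count given next is for genes chosen by the spread between guides, which the test itself uses, and is no separate result. The same fit called 1423 genes when those with equal values in both guides were left out, and the adjusted p of the 7 genes then ran from 0.0976 to 0.87.

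Further chaperone genes were counted in lists by role, 56 compared genes of 78 listed, with medians of 0.10, 0.12 and 0.01 for the log2 ratio to the control in the order guide 69, guide 71 and the FOXF1 guide. Of the 56, 3 were at least 1.5-fold higher (4.97% of all genes) and 1 at least 1.5-fold lower (5.85%) in all 3 targeted libraries, and 0 were at least 1.5-fold higher (3.12%) or lower (1.86%) with the FOXF1 guide than with both enhancer guides. The 3 higher genes were HSPB11, PFDN4 and HSPE1, and the lower one was PTGES3. The 3 became 2 after median centring or length correction, and among genes averaging 5 RPKM or more. The 1 lower became 0 after GC correction. HSPB11, named as a small heat shock protein but working in intraflagellar transport, was at 2.3 RPKM with the control and 4.5, 4.9 and 5.8 RPKM in the targeted libraries. PTGES3, the HSP90 co-chaperone p23, was at 47.8 RPKM with the control and 25.9, 29.1 and 29.8 RPKM in the targeted libraries. The values of these and the following chaperones are not corrected for transcript length, although ratios to the control fell with length across genes.

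Among the 6 other HSP70 and HSP110 genes compared, HSPA2, best known from testis, was at 5.3 RPKM with the control and 8.8, 8.4 and 7.4 RPKM with guide 69, guide 71 and the FOXF1 guide. HSPA4 and HSPH1, of the HSP110 type that exchanges the nucleotide of HSP70, were both below the control, at log2 ratios of -0.26, -0.33 and -0.63 for the former and -0.22, -0.27 and -0.41 for the latter. Of 12 other J-domain genes, 0, 3 and 1 were at least 1.5-fold higher in the same order, against 8.17%, 14.0% and 11.6% of all genes, and 0, 1 and 1 lower, against 9.92%, 14.7% and 13.2% (DNAJB5, DNAJC8 and DNAJC9 were the higher ones with guide 71, and DNAJB5 with the FOXF1 guide). The lower one was DNAJC13, a J-domain protein of endosomes, at 4.2 RPKM with the control and 3.0, 2.1 and 1.9 RPKM. DNAJB5 and DNAJC8 were above the control in all targeted libraries, DNAJB5 at log2 ratios of 0.49, 0.58 and 0.65 and DNAJC8 at 0.46, 0.74 and 0.34.

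Of 8 HSP90 co-chaperones, PTGES3 was the 1 gene past 1.5-fold, lower in each targeted library. Of all genes, 9.92%, 14.7% and 13.2% were as much lower with guide 69, guide 71 and the FOXF1 guide. None of the 8 was higher, against 8.17%, 14.0% and 11.6% of all genes. FKBP4, which ties HSP90 to steroid receptors, had log2 ratios of 0.36, 0.41 and 0.35, and STUB1, the ubiquitin ligase CHIP, of 0.34, 0.32 and 0.34. BAG3, the partner of HSPB8, was at 48.5 RPKM with the control and 35.5, 30.2 and 36.9 RPKM in the targeted libraries, below the control where HSPB8 was above it. Among the 5 genes of nucleotide exchange, BAG5 had log2 ratios of -0.54, -0.36 and -0.74 and HSPBP1 of 0.39, 0.61 and 0.54.

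Of 14 chaperonin and prefoldin genes, 1, 2 and 1 were at least 1.5-fold higher than the control, against the same 8.17%, 14.0% and 11.6% of all genes, and 0 lower. PFDN4, a prefoldin subunit, was at 6.7 RPKM with the control and 11.9, 13.8 and 10.8 RPKM, and PFDN1 had log2 ratios of 0.56, 0.60 and 0.50. The chaperonin subunit CCT5 had log2 ratios of -0.16, 0.40 and -0.39, the FOXF1 guide and guide 71 lying on opposite sides of the control. Of 7 mitochondrial chaperones, HSPE1 was at 11.2 RPKM with the control and 17.4, 19.9 and 19.0 RPKM, while its partner in the same chaperonin, HSPD1, was at 48.7 RPKM and then 39.3, 41.2 and 31.3 RPKM. HSPA9, the mitochondrial HSP70, had log2 ratios of -0.53, -0.12 and -0.60. The part of transcript length in the differences among these mitochondrial chaperones was not tested. HSF1, the main heat shock factor, was at 16.9, 14.8, 12.7 and 16.5 RPKM in the 4 libraries, highest in the control and lowest with guide 71. HSF2 was at 1.8, 2.2, 2.4 and 2.7 RPKM and the factor-binding HSBP1 at 11.3, 15.0, 17.7 and 13.8 RPKM.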

How the data were processed

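Poly(A) RNA of 4 libraries was sequenced by the study as single reads of 65 bases. According to its methods and the labels, the authors aligned reads to hg19 with TopHat2 (version not given in the sources used here), counted them per gene with HTSeq and converted counts to RPKM. They quantile-normalized the deposited RPKM values, which are given to 1 decimal with a floor of 1, and columns agree at 72.5% of ranks. Deposited columns with log2 ratios to the control library are the authors' own comparisons and were left aside.

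The heat shock genes and the lists of chaperones were chosen with earlier results of these data known. Log2 differences were computed without a pseudocount for genes averaging 2 RPKM or more, and a 1.5-fold difference was counted. Beside the heat shock genes, FOXF1, HRAS and the 5 genes nearest to HSPB6, up to 3 chaperones per list are named, those whose mean absolute log2 ratio to the control was highest. HSPA1B, DNAJC9 and the marker and mitochondrial genes named were chosen after their values were seen. With 1 library per condition no test was made, except limma with a mean-variance trend on log2 RPKM for both enhancer guides against the control. Transcript length and GC content are of the canonical transcripts of GENCODE release 44 on GRCh37, matched for 7559 of 7589 genes, and trends were fitted by a natural cubic spline with 5 knots. Since hg19 and GRCh37 share coordinates, positions are given in GRCh37. Alternatives were a pseudocount of 1, median centring, length and GC correction, no filter or one at 5 RPKM, a 2-fold rule, leaving out either enhancer guide, and limma with no trend or without genes equal in both guides. Python 3.11.15, numpy 2.4.6, pandas 2.3.3, matplotlib 3.10.9, R 4.3.3 and limma 3.58.1 were used.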

Additional observations from a re-analysis of the deposited data

Results flagged for a closer look

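HSPB6 lay below the control with both enhancer guides and above it with the FOXF1 guide, with a log2 difference between the FOXF1 guide and the mean of the enhancer guides of 2.09. HSPA8 lay above the control with both enhancer guides and below it with the FOXF1 guide, with a difference of -0.41. HSP90AA1 lay below and then above the control, with a difference of 0.07. After GC correction HSPA8 was above the control with the FOXF1 guide (0.11), and after median centring HSP90AA1 was below it (-0.04). After GC correction the HSP90AA1 difference was 0.32. These 3 genes were picked out because both enhancer guides lay on one side of the control and the FOXF1 guide on the other, as did 13.0% of the genes compared. The difference was not tested for any of them, and all ratios share the single control library.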

How the results depend on the processing

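The HSPB6 difference between the FOXF1 guide and the enhancer guides stayed between 1.79 and 2.12 with a pseudocount of 1, median centring, length or GC correction, and was 1.79 to 2.39 with either enhancer guide left out. HSPB8, the 1 gene higher with guide 69, fell under 1.5-fold (0 genes) with a pseudocount of 1, median centring, length or GC correction and, by construction, the 2-fold rule. HSPB6, the 1 gene lower with guide 69, did so (0 genes) with a pseudocount of 1 and the 2-fold rule. With the FOXF1 guide, 1 gene instead of 2 was higher after length correction or by the 2-fold rule. Of the other chaperones lower in all 3 targeted libraries, there were 0 after GC correction and 2 with every gene in the table. Those higher in all 3 numbered 2 instead of 3 after median centring or length correction and among genes averaging 5 RPKM or more. That change is counted below as within 1.5 times. Between guides 71 and 69, the genes higher and lower with guide 71 numbered 102 and 96 with a pseudocount of 1 and 80 and 115 among genes averaging 5 RPKM or more, against 183 and 216. limma called 354 genes with every gene in the table and 1423 without genes equal in both guides, against 0, and also 0 with no trend, with a pseudocount of 1 and among genes averaging 5 RPKM or more. Leaving out genes equal in both guides chose genes by the spread that the test uses. In that fit the prior degrees of freedom, the weight limma gives to the spread over all genes, were infinite, against 1.4. Its calls are therefore no separate result. The cause of the other changes was not tested. The log2 ratio of HSP90AB1 was 0.0080 without guide 69 and -0.2157 without guide 71, against -0.10 for both. The other 70 recomputed counts and differences stayed within 1.5 times of the count or within 1 SD. Many of these could not change, since a filter alters no ratio and all 8 genes compared averaged 5 RPKM or more. The 2-fold rule cannot raise a count, and leaving out a guide cannot lower a count that asks for both guides. The tally is therefore no measure of stability. Leaving out either guide could not move the HSPB6 difference by 1 SD, since this SD is the spread of the 2 guides. Under the limma alternatives or with a guide left out, 48 single-gene ratios of the enhancer guides to the control kept their direction. Where tested, they also kept their side of the threshold. Of the limma alternatives only the pseudocount could change a ratio, so the others bear on the threshold alone. Under length correction, not part of that tally, the HSPB1 ratio turned from 0.22 to -0.15. The fall of HSPB6 from guide 69 to guide 71 was under 1.5-fold with a pseudocount of 1 or GC correction and under the 2-fold rule. No paired analysis was possible, since each guide gave 1 library. Depth is unknown, and the floor of 1 RPKM hides falls of low genes such as CRYAB.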
